A study of Mus musculus with 8 samples.

Results

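Genes that hematopoietic stem cells (HSCs) share with the endothelium were followed in single HSCs labelled wild type (WT) or Med23-deficient (KO). The 9 genes were Esam, Jam3, Pecam1, Cdh5, Emcn, Tek, Tie1, Eng and Procr, and the set was chosen on values of these same cells, in which Esam was lower and Emcn higher in the cells labelled KO. Every level and ratio below is therefore a description. Of the 9 genes, 8 were among the 10720 genes of the table, and Cdh5 was not analysed here.

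The cells came from adult C57BL/6 mice with the conditional Med23 L/L allele, Mx1-cre+ for KO and Mx1-cre- littermates for WT. Mx1-cre is switched on by interferon after poly(I:C) injection, and its activity is not limited to blood cells. The days from injection to sorting, and whether the controls were injected, were not given in so many words for these cells. HSCs were sorted from bone marrow as LSK CD150+CD34-CD48- cells, picked by hand and reverse transcribed with primers that tag each molecule (unique molecular identifier, UMI), which lets amplified duplicates be dropped from the count. Each genotype had 4 libraries, but the columns of the table give the genotype and not the library. Each label was thus 1 pool, no difference below has a replicate check, and library and genotype cannot be told apart.

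HSCs arise in the embryo from hemogenic endothelium, a specialised part of the vessel lining, and adult HSCs keep a part of the endothelial surface program. These proteins form cell contacts (ESAM, JAM3, PECAM1, VE-cadherin), act as receptors in the vessel wall and the stem cell niche (TIE2, TIE1, endoglin and EPCR), or cover the cell with sialylated sugar (endomucin). Several of them are used as antibody targets to enrich for HSCs that repopulate over a long time.

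After a minimum of 2000 genes and 20000 UMIs per cell, 259 of 304 cells labelled WT and 234 of 282 labelled KO were kept. They held 21475782 and 16180546 UMIs, with a median of 59649 (range 20038 to 496293) and 50281 (range 20027 to 467384) per cell. Med23 itself, the deleted gene, was counted 122 times in WT and 117 times in KO cells (log2 ratio 0.35, 95% interval -0.03 to 0.73), so its level was not lower in the cells labelled KO. 3' UMIs can also come from a transcript that lacks a deleted exon, which was not tested here. The study itself reported efficient deletion of Med23 after poly(I:C) injection. All 17 HSC marker genes were in the table, and Kit, Ly6a, Mecom and Slamf1 were each counted in both pools. Slamf1, which encodes the sort marker CD150, had 837 UMIs in WT and 132 in KO cells. RNA of oocyte genes was a mark of the WT pool: 56 WT cells and 1 KO cell had over 1000 counts per 1000000 UMIs (CPM) of 18 such genes. All 18 oocyte genes were lower in KO by the interval of the ratio, against 35.7% of all genes. Most of them passed the authors' filter on the mean count only through WT, so this count is not read. Zp3, an egg coat gene that an HSC should lack, served as a gauge of foreign RNA.

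Promoter windows of 300 bases, 250 before and 50 after the start, were matched by symbol for 5 of the 8 genes from RefSeq (GRCm38.p6). Sequence outside these windows was not searched. Both strands were searched for short cores that transcription factors of blood and endothelium are known to favor. For the ETS family these were CCGGAA and, as a second form of the same core that HSC factors such as ERG and FLI1 also accept, CAGGAA. For the GATA family, which acts in stem cells and in the red cell lineage, the letters were AGATAA. The RUNX family was represented by the core that its DNA-binding domain contacts, TGTGGT. The E-box, which basic helix-loop-helix factors such as TAL1 recognize together with partner proteins, was searched as CAGCTG. The AP-1 element, which responds to growth signals and stress in many cell types, was searched as TGANTCA. No 2 matches shared a base. Printed are 3 windows, those of Emcn and Tek, which were higher in KO and hold the most CAGGAA matches, and that of Procr, which was lower in KO and holds none. Capitals mark the matches.
Emcn (chr3:137340828-137341127, plus strand): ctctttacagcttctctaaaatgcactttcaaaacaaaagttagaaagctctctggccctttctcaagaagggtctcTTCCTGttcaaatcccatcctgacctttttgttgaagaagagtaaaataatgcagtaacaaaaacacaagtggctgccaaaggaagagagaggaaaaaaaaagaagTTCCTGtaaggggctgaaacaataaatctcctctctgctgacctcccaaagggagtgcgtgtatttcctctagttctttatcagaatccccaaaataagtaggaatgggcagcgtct
Tek (chr4:94739039-94739338, plus strand): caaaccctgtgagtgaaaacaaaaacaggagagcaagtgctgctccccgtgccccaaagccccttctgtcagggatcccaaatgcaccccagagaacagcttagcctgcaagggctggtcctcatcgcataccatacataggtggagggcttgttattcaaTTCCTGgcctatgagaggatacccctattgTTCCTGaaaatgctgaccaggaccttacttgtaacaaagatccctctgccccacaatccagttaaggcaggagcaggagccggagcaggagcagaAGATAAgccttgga
Procr (chr2:155750967-155751266, plus strand): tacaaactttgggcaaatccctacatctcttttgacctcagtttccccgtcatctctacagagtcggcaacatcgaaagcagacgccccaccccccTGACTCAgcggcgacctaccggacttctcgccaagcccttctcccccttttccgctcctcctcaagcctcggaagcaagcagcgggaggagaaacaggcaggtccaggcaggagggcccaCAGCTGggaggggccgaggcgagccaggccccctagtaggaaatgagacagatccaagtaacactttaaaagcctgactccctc
In the Emcn window both matches are CAGGAA read on the other strand, starting 173 and 67 bases before the start. The Tek window holds CAGGAA in the same orientation, 89 and 59 bases before the start, and AGATAA from base 37 after it. Tie1, which was higher in KO, and Eng, which was lower, have 1 CAGGAA match each. Esam, Pecam1 and Jam3 had no window. The Procr window instead holds TGANTCA 154 bases and CAGCTG 34 bases before the start. CAGGAA was in 30.6% of all 32851 windows, AGATAA in 11.2%, CAGCTG in 16.3% and TGANTCA in 7.81%. No window of the 5 genes held CCGGAA (14.9% of all windows) or TGTGGT (16.8%). A match is a run of letters and not a bound site.

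The ratios of KO over WT did not share 1 direction. Esam had the lowest ratio, Pecam1 and Emcn had the highest ratios, and Procr and Eng, the most abundant of the set, were slightly lower in KO. The interval of the ratio lay above 1 for 5 of the 8 genes (Emcn, Tek, Tie1, Pecam1, Jam3), against 39.2% of all genes in the table, and below 1 for 3 (Esam, Procr, Eng), against 35.7%. At least 2-fold higher in KO was 1 gene, Pecam1, beside 6.98% of all genes, and at least 2-fold lower was 1 gene, Esam, beside 7.94%. Nothing is read from these counts, since the set was chosen on this contrast. The median ratio of the 8 genes was 0.55 on the log2 scale, while that of all genes was 0.02 with 5th and 95th percentiles of -1.45 and 1.18. Summed over the 8 genes, the level was 470 CPM in WT and 445 CPM in KO cells.

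Esam encodes an immunoglobulin-family adhesion molecule of endothelial tight junctions and platelets, and marks HSCs. It had 2241 UMIs in WT and 645 in KO cells, a level of 104 CPM (exact Poisson 95% interval 100.1 to 109) against 39.9 CPM (36.8 to 43.1). The log2 ratio was -1.39 (-1.52 to -1.26), a 2.62-fold lower level, and 5.28% of all genes had a lower ratio. The intervals do not overlap, but they and all others here cover counting error only, not the spread between animals or libraries. In WT cells the level ran from 0 to 1069 CPM with a median of 46.3, and in KO cells from 0 to 557 CPM with a median of 0. The single cells thus overlapped, and the pools differed by how many cells held Esam as well as by how much. With each cell thinned to 20000 UMIs, 54.4% (exact binomial 95% interval 48.2 to 60.6) of WT cells had a UMI of Esam, and 22.6% (17.5 to 28.6) of KO cells. Without thinning the shares were 69.1% and 33.3%. At least 5 UMIs remained after thinning in 55 WT cells (21.2%) and 12 KO cells (5.13%), and the mean over cells with a UMI was 4.37 and 3.28 UMIs. A single KO cell held 86 UMIs, 13.3% of all Esam UMIs of the KO pool, and without the highest cell of each label the log2 ratio was -1.54.

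**Figure D1:**
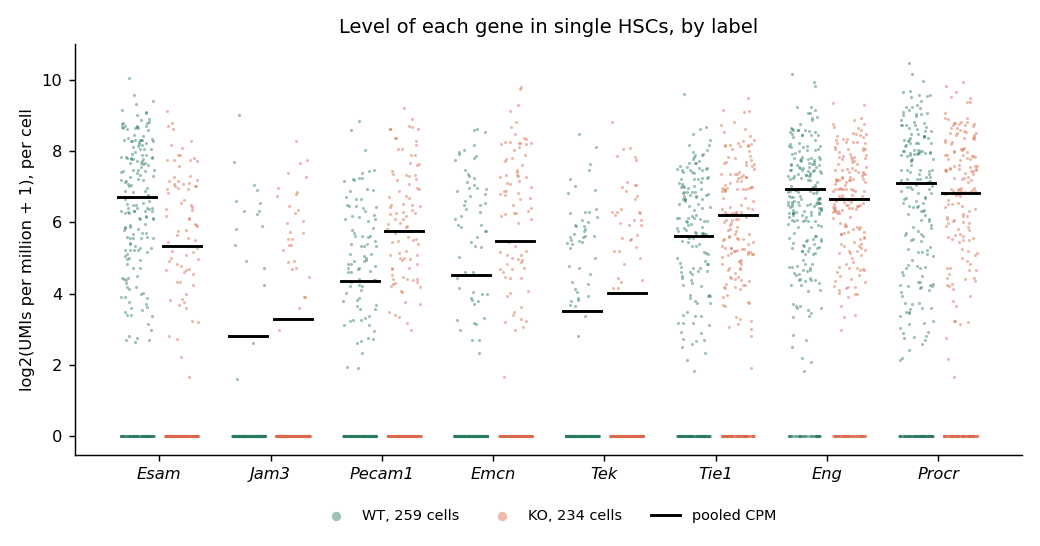
Level of each gene in every kept cell, as log2(CPM + 1) on the vertical axis, for 259 WT cells (green) and 234 KO cells (orange), with the level of the pool as a black line. Cells at 0 form the row at the bottom, where most KO cells lie for Esam, while cells of both labels share the same range above 0.

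Jam3, a junctional adhesion molecule that HSCs also carry, was the lowest of the set. It had 130 UMIs in WT and 143 in KO cells, 6.05 CPM (5.06 to 7.19) against 8.84 CPM (7.45 to 10.4), a log2 ratio of 0.55 (0.19 to 0.90). Few cells held it, since the thinned share was 4.63% (2.42 to 7.95) in WT and 8.55% (5.30 to 12.9) in KO cells, and 20.8% and 16.1% of its UMIs were in a single cell of each label. Esam and Jam3, members of related adhesion families, thus had ratios of opposite sign. Jam2, the JAM3 ligand, was higher in KO (0.87, from 0.60 to 1.15), as was F11r, which encodes JAM-A (0.29, from 0.15 to 0.44). In all, 11 of 17 listed junctional adhesion molecules and partners were in the table, with 6 ratios above 1, 4 below 1 and 1 interval that held 1. These counts, and those of the lists below, stand beside 39.2% above 1 and 35.7% below 1 over all genes, and nothing particular to a list is read from them. The highest was Itgam, which encodes the integrin chain CD11b that can bind JAM3, with 40 UMIs in WT and 384 in KO cells. The list median was 0.29 (log2 ratio), beside 0.02 for all genes.

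Pecam1 encodes CD31, a junctional adhesion molecule that signals through tyrosine phosphatases. It had 418 UMIs in WT and 858 in KO cells, 19.5 CPM (17.6 to 21.4) against 53.0 CPM (49.5 to 56.7). The log2 ratio of 1.45 (1.28 to 1.62), or 2.72-fold, was the highest of the set over summed UMIs. Its place depended on how cells were weighted: with cells thinned to 20000 UMIs Pecam1 was at 1.10 and Emcn at 1.24, and with the authors' normalized values averaged over cells Pecam1 was at 0.87, under 2-fold, below Emcn at 1.11 and Jam3 at 1.22. Its thinned share was 18.1% (13.6 to 23.4) in WT and 27.4% (21.7 to 33.5) in KO cells, with intervals that overlap. The cells with a UMI held more of it in KO, 67.1 CPM in the median against 32.2 CPM, and 15 KO cells but 4 WT cells kept at least 5 UMIs after thinning. Of 10 listed PECAM1 partners, 7 were in the table, with 3 ratios above 1, 3 below 1 and 1 that held 1. Ptpn11, which encodes the phosphatase SHP2, was the lowest at -0.73 (-0.83 to -0.64), while Ptpn6, which encodes SHP1, was at 0.27 (0.21 to 0.34). Of 11 listed genes of the VE-cadherin junction, 7 were in the table, 4 above 1 (39.2% over all genes), 1 below 1 (35.7%) and 2 that held 1. Vcl, which encodes vinculin, was the highest at 1.12 (0.89 to 1.35), and Ctnnd1, which encodes p120-catenin, was at 0.14 (-0.07 to 0.35).

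Emcn encodes endomucin, a sialylated mucin of venous and capillary endothelium that marks HSCs in the bone marrow. It had 472 UMIs in WT and 707 in KO cells, 22.0 CPM (20.0 to 24.1) against 43.7 CPM (40.5 to 47.0). The log2 ratio was 0.99 (0.82 to 1.16), or 1.99-fold. The median cell was at 0 in both labels, and the highest was at 392 CPM in WT and 897 CPM in KO cells. The thinned share was 15.4% (11.3 to 20.4) in WT and 26.9% (21.4 to 33.1) in KO cells, intervals that do not overlap, and 22.8% and 34.2% without thinning. At least 5 UMIs remained in 7 WT cells (2.70%) and 21 KO cells (8.97%). Of 10 listed sialomucins, 8 were in the table, with 7 ratios above 1 (39.2% over all genes) and 1 below 1 (35.7%), and a median of 0.61. Cd34, whose protein the sort gated out, was at 0.77 (0.71 to 0.83), Cd24a, a small heat-stable antigen, at 0.95 and Muc13, the lowest, at -0.80 (-0.89 to -0.71). Without Emcn the median of this list was 0.46.

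The angiopoietin receptor TIE2, encoded by Tek, holds HSCs in the niche, and Tie1 encodes its partner receptor. Tek had 223 UMIs in WT and 246 in KO cells, 10.4 CPM (9.07 to 11.8) against 15.2 CPM (13.4 to 17.2), a log2 ratio of 0.55 (0.28 to 0.82). Its thinned shares of 11.6% (7.95 to 16.1) and 12.8% (8.82 to 17.8) were not distinguishable. Tie1 had 1039 and 1171 UMIs, 48.4 CPM (45.5 to 51.4) against 72.4 CPM (68.3 to 76.6), a log2 ratio of 0.58 (0.46 to 0.70). Both receptors were thus about alike in ratio at different levels. The thinned share of Tie1 was 40.2% (34.1 to 46.4) and 47.0% (40.5 to 53.6), overlapping intervals, and the median cell was at 12.4 CPM in WT and 28.1 CPM in KO. Their ligand gene went the other way, since Angpt1, which HSCs express themselves, had 5145 UMIs in WT and 2489 in KO cells and was the lowest of its list at -0.64 (-0.71 to -0.57). Dok2, an adaptor that TIE2 recruits, was the highest at 1.08 (0.99 to 1.17). Of 15 genes listed for this pathway 9 were in the table, 5 above 1, 3 below 1 and 1 that held 1. Their median of 0.39 turned to -0.14 without Tek and Tie1.

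Eng encodes endoglin, a co-receptor for TGF-beta and BMP ligands. It had 2611 UMIs in WT and 1618 in KO cells, 122 CPM (117 to 126) against 99.997 CPM (95.2 to 105), a log2 ratio of -0.28 (-0.37 to -0.19). Its thinned share was 67.2% (61.1 to 72.9) in WT and 58.1% (51.5 to 64.5) in KO cells, with overlapping intervals, and thinned to 10000 UMIs the difference was 0.48 percentage points the other way. Of 23 listed genes of the pathway 18 were in the table, 6 above 1, 6 below 1 and 6 that held 1, with a median of 0.07. The receptor genes split, as Tgfbr1 was at 1.02 (0.84 to 1.20), Tgfbr2 at 0.85 (0.63 to 1.08) and Bmpr2 at 0.74 (0.56 to 0.92), whereas Tgfbr3, which encodes betaglycan, was at -1.17 (-1.55 to -0.80). Id3, a BMP target gene, was the lowest, with 305 UMIs in WT cells and 1 UMI in KO cells, a log2 ratio of -7.84 (-13.15 to -5.36). Id3 was seen in only 7.72% of thinned WT cells, below the 49.0% of Zp3, the gauge of foreign RNA. Tgfb2 was alike, with 229 UMIs in WT cells and 1 UMI in KO cells, a log2 ratio of -7.43. Both were in the table only through their WT counts, so their direction was fixed. No change in signalling is read from them. The other listed Id genes did not share the fall of Id3, with Id1 at 0.15 (-0.17 to 0.46) and Id2 at -0.40 (-0.60 to -0.20).

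Procr encodes EPCR, the receptor of protein C, and is among the most used HSC surface markers. It had 2959 UMIs in WT and 1819 in KO cells, 138 CPM (133 to 143) against 112 CPM (107 to 118), a log2 ratio of -0.29 (-0.38 to -0.21). The median cell went the other way than the pool, at 35.2 CPM in WT and 48.7 CPM in KO. The thinned share was 53.7% (47.4 to 59.9) in WT and 58.1% (51.5 to 64.5) in KO cells, with overlapping intervals. Its direction depended on depth: without thinning the shares were 68.7% and 65.8%, and thinned to 10000 UMIs KO minus WT was -1.76 percentage points. The upper quartile and the highest cell were higher in WT, at 235 and 1439 CPM against 190 and 989 CPM. Of 11 listed genes of the protein C pathway 7 were in the table, none above 1, 2 below 1 (Procr and F2r) and 5 that held 1. F2r, which encodes the thrombin receptor PAR1 that EPCR-bound protein C can cleave, was at -0.75 (-0.92 to -0.59).

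Since UMIs count 3' ends and need no division by gene length, the genes can be ordered by CPM, although priming may differ between them. In WT cells the order of levels was Procr, Eng, Esam, Tie1, Emcn, Pecam1, Tek and Jam3, and only Emcn and Pecam1 had overlapping intervals among neighbours. In KO cells it was Procr, Eng, Tie1, Pecam1, Emcn, Esam, Tek and Jam3, and Emcn and Esam overlapped. Esam was thus in the third place in WT and in the sixth in KO cells. The level of Esam was 4.75 times that of Emcn in WT cells and 0.912 times in KO cells.

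**Figure D2:**
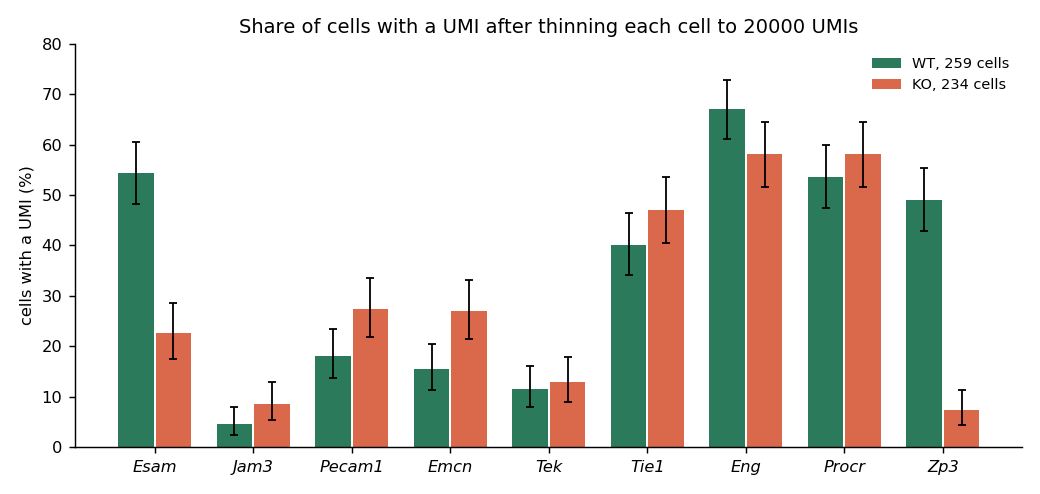
Share of cells with a UMI of each gene (vertical axis, percent) after thinning every cell to 20000 UMIs, for 259 WT cells (green) and 234 KO cells (orange), with exact 95% intervals. Esam is at 54.4% in WT and 22.6% in KO cells and Emcn at 15.4% and 26.9%, while Zp3, the gauge of foreign RNA, is at 49.0% in WT and 7.26% in KO cells.

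Foreign RNA sets a limit on these shares. Zp3 was seen in 49.0% (42.8 to 55.3) of thinned WT cells and 7.26% (4.29 to 11.4) of KO cells, at median depths of 59649 and 50281 UMIs before thinning. In WT cells the shares of Emcn, Tek, Tie1, Pecam1 and Jam3 lay below this gauge and are not read as shares of expressing cells, and those of Esam and Procr lay above it with overlapping intervals. The WT share was 10.4% for Col1a1, a gene of stroma, so the gauge varied with the gene. Vwf, on both the endothelial and the platelet list, was in 8.49% of WT cells. Its share was 8.87% without the cells with oocyte RNA, and it is not read as foreign RNA. In KO cells the shares of all 8 genes lay above the gauge, and the intervals of Tek and Jam3 overlapped with its interval. Among WT cells, levels were not higher in the cells that carried oocyte RNA, apart from Tie1 and Jam3, whose intervals overlapped. The 1 KO cell over the limit for oocyte genes gives no comparison. Esam was at 78.2 CPM (70.4 to 86.6) in the 56 WT cells with oocyte RNA and at 112 CPM (107 to 117) in the other 203. Emcn was at 20.1 CPM (16.3 to 24.6) and 22.5 CPM (20.3 to 24.9). Without the cells with oocyte RNA the log2 ratio was -1.49 for Esam and 0.96 for Emcn. Foreign RNA was still present in the cells that remained, since Zp3 was seen in 40.4% (33.6 to 47.5) of the 203 WT cells and 7.30% of the 233 KO cells.

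Endothelial marker genes also differed between the pools. Of 23 listed markers 8 were in the table, and their summed level was 384 CPM in WT and 429 CPM in KO cells, most of it from Egfl7 and Icam2, which HSCs express. Robo4 had 370 UMIs in WT and 277 in KO cells, a log2 ratio of -0.009 (-0.24 to 0.22). The other 5 genes were also low: Vwf had 206 UMIs in WT and 7 in KO cells, Tm4sf1 215 and 19, Kdr 152 and 34, Ecscr 402 and 112, and Clec14a 150 and 55. Vwf is also on the megakaryocyte and platelet list. The list had 2 ratios above 1 (39.2% over all genes), 5 below 1 (35.7%) and 1 that held 1, with a median of -1.24. That median was -0.48 without the cells with oocyte RNA and 0.081 over those that reached a mean of 0.5 UMI, so its sign rests on the low genes. Vwf, Tm4sf1 and Kdr were in the table only through their WT counts. The authors' filter on the mean count thus fixed their direction, and the list count and median are not read. Esam was lower in KO along with these 5 genes, and Emcn was higher. A UMI of any of these 5 markers was seen in 91 WT and 39 KO cells. The 5 were those of the list below 1, so this split follows markers already known to be lower in KO. Esam was at 108 CPM in those WT cells and at 102 CPM in the 168 others, and at 51.7 and 37.4 CPM in KO cells. Without the cells that held a marker, the log2 ratio was -1.44 (-1.60 to -1.29) for Esam and 1.05 (0.83 to 1.27) for Emcn. In the cells that held a marker it was -1.06 (-1.33 to -0.81) for Esam and 1.17 (0.86 to 1.47) for Emcn. These markers are sparse, so a cell without a UMI of them may still hold their RNA, and their part in the ratios was not tested. Among other marker lists, low genes of the stroma differed most. Of 6 stromal genes in the table (of 12 listed), 4 were at least 2-fold lower in KO (7.94% over all genes), and the median was -3.09. Col1a1 had 345 UMIs in WT and 4 in KO cells, Acta2 234 and 2, Col1a2 128 and 5, and Lepr 241 and 48. Col1a1, Acta2 and Col1a2 were in the table only through their WT counts, so the authors' filter on the mean count fixed their direction. The stromal count and median are therefore not read. Below, Thy1 and Klf1 were in the table only through WT, and Car1 only through KO. The stromal sum of 184 and 200.2 CPM was carried by Vim, which many cell types express, at 128 and 185 CPM. Lymphoid genes (3 of 12) summed to 72.9 and 97.4 CPM, carried by Cd79b at 55.4 and 86.3 CPM, whereas Thy1 had 163 UMIs in WT and 17 in KO cells. Erythroid genes (6 of 12) summed to 1540 and 1195 CPM, most of it from Car2. At least 2-fold lower in KO were 3 of them, Gata1, Klf1 and Epor (7.94% over all genes). Car1 had 3 UMIs in WT and 989 in KO cells. However, a single KO cell held 96.6% of these 989 UMIs, and a single KO cell held 94.9% of the 39 Klf1 UMIs in KO. Megakaryocyte and platelet genes (17 of 19) summed to 1906 and 1927 CPM, of which Pf4 gave 632 and 589 CPM. They had 8 ratios above 1 and 7 below 1. At least 2-fold lower were 4 (7.94% over all genes), and at least 2-fold higher 2 (6.98%). Macrophage and neutrophil genes (6 of 16) summed to 360 and 591 CPM with 4 above 1 and 2 below 1. Prtn3 gave 82.7 and 268 CPM, while S100a8 and S100a9 were lower in KO. The part of these lists in the ratios of the set was not tested.

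The RNA of the sort marker CD150, Slamf1, was lower in KO, so Esam and Emcn were set against it within each label. In cells with a Slamf1 UMI, 93 WT and 19 KO, Esam was at 111 CPM in WT and 39.9 CPM in KO, and in cells without it, 166 and 215, at 99.1 and 39.9 CPM. The log2 ratio of Esam was thus -1.47 (-1.86 to -1.11) with and -1.31 (-1.46 to -1.17) without a Slamf1 UMI. Emcn was at 24.6 and 82.3 CPM with, and at 19.8 and 39.4 CPM without it, ratios of 1.74 (1.42 to 2.05) and 0.99 (0.77 to 1.22). At the thinned depth, Esam was seen in 53.0% of WT cells with a UMI of Cd34 and 57.9% of those without, and in 22.7% and 22.6% of KO cells. It was seen in 55.4% and 53.5% of WT cells with and without Itga2b, which encodes CD41, and in 21.5% and 25.8% of KO cells. Esam thus stood lower in KO on both sides of each of these 3 genes, and the part of the sort in these values was not tested.

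**Figure D3:**
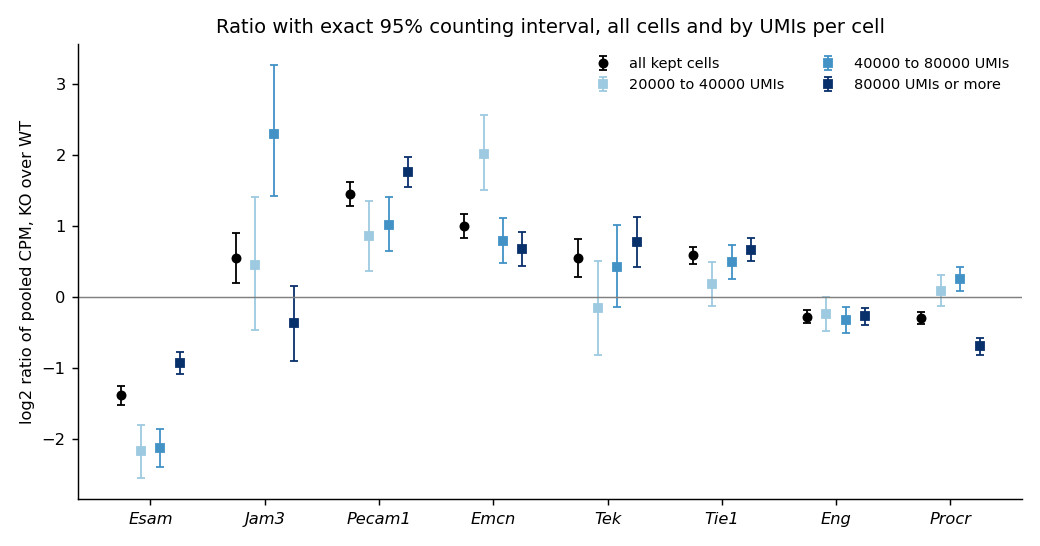
Log2 ratio of pooled CPM, KO over WT (vertical axis), for each gene over all kept cells (black circles) and in cells of 3 depth ranges (blue squares), with exact 95% counting intervals. Esam lies below 0 and Emcn and Pecam1 lie above 0 in every range, while Procr, Tek and Jam3 cross 0.

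Depth per cell was examined because it differed between the pools and deep cells weigh most in a sum. Esam was lower in KO cells in each of 3 depth ranges, chosen after the data were seen. Its log2 ratio was -2.17 (-2.55 to -1.80) at 20000 to 40000 UMIs, with 83 WT and 90 KO cells, and -2.13 (-2.40 to -1.86) at 40000 to 80000 UMIs, with 75 and 84 cells. In the deepest 101 WT and 60 KO cells it was -0.93 (-1.09 to -0.77). The level in WT cells was 130, 134 and 91.5 CPM over the 3 ranges, and in KO cells 28.8, 30.7 and 48.1 CPM. Emcn also differed most in the shallow cells, with 2.02 (1.51 to 2.56), 0.79 (0.48 to 1.10) and 0.67 (0.43 to 0.91). Pecam1 went the other way, at 0.85 (0.36 to 1.35), 1.02 (0.64 to 1.41) and 1.76 (1.55 to 1.97). Eng stayed between -0.33 and -0.24. Procr was at 0.09 (-0.13 to 0.30) and 0.25 (0.08 to 0.42) in the shallower ranges and at -0.69 (-0.81 to -0.58) in the deepest, so its lower pooled level rests on the deepest cells. Jam3 was higher in KO at 40000 to 80000 UMIs (2.29, from 1.42 to 3.27), and its other intervals held 0.

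Whether Esam and Emcn were found in the same cells was then described. At 20000 UMIs, WT cells with both numbered 25, with Esam only 116, with Emcn only 15 and with neither 103. In KO cells the numbers were 15, 38, 48 and 133. Among WT cells with Esam, 17.7% (11.8 to 25.1) also had Emcn, against 12.7% (7.29 to 20.1) of those without. In KO cells these shares were 28.3% (16.8 to 42.3) and 26.5% (20.2 to 33.6). Emcn was therefore not distinguishably more or less frequent in Esam-holding cells of either label, and most cells that held Emcn in KO lacked a UMI of Esam. Of the other genes, Procr differed most with the presence of Esam in WT cells: it was in 61.0% (52.4 to 69.1) of cells with Esam and 44.9% (35.7 to 54.3) of those without. In KO cells it was in 66.0% (51.7 to 78.5) and 55.8% (48.2 to 63.2). The number of the 8 genes seen per cell had a median of 3 in both labels, with a mean of 2.65 ± 1.36 (SD over 259 cells) in WT and 2.62 ± 1.26 (SD over 234 cells) in KO. At least 4 of the genes were seen in 23.9% of WT and 24.8% of KO cells.

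**Figure D4:**
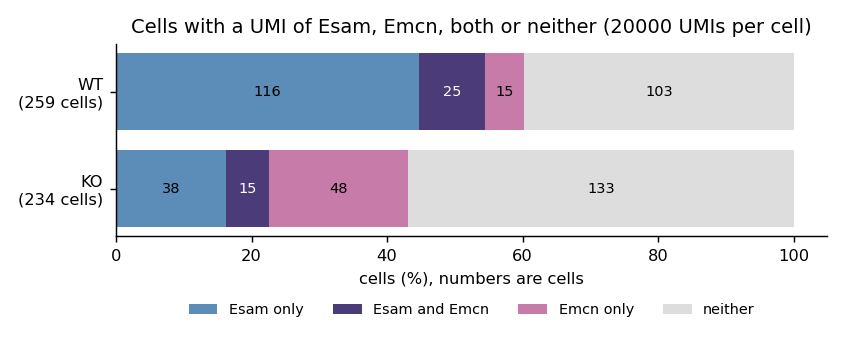
Share of cells (horizontal axis, percent) with a UMI of Esam only, of both Esam and Emcn, of Emcn only or of neither, at 20000 UMIs per cell, with the number of cells printed in each block. WT cells show 116, 25, 15 and 103 cells and KO cells 38, 15, 48 and 133.

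Over cells, the genes most like Esam in WT were Uggt1 (r = 0.28), Svip (r = 0.27) and Rpl36 (r = 0.23), by Pearson's r of log2(CPM/100 + 1) over 259 cells among the 9325 genes that reached a mean of 0.5 UMI per cell. In the 234 KO cells the same genes had r of 0.085, -0.081 and -0.034. For Emcn they were Sesn1 (r = 0.36), Cd302 (r = 0.34) and Zfp512 (r = 0.33), with r of 0.16, -0.042 and 0.060 in KO cells. Esam and Emcn themselves had r of 0.096 in WT and -0.012 in KO cells. The points share depth and pool, the counts are sparse, and correlations this weak are no finding.

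Of 26 listed transcription factors that endothelium and HSCs share, 20 were in the table, 13 above 1 (39.2% over all genes), 4 below 1 (35.7%) and 3 that held 1, with a median of 0.34. Mecom, a regulator of HSC quiescence, was the highest of those with a mean of at least 0.5 UMI, at 1.14, and Egr1, an immediate early factor, the lowest at -1.39 (-1.67 to -1.11), beside Esam in size. The ETS factor Erg was at 0.34 (0.24 to 0.44), Fli1 at -0.07 (-0.16 to 0.02) and Etv6 at -0.45 (-0.51 to -0.38). Among the 17 HSC markers, 7 were above 1, 7 below 1 and 3 held 1, with a median of 0.08.

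**Figure D5:**
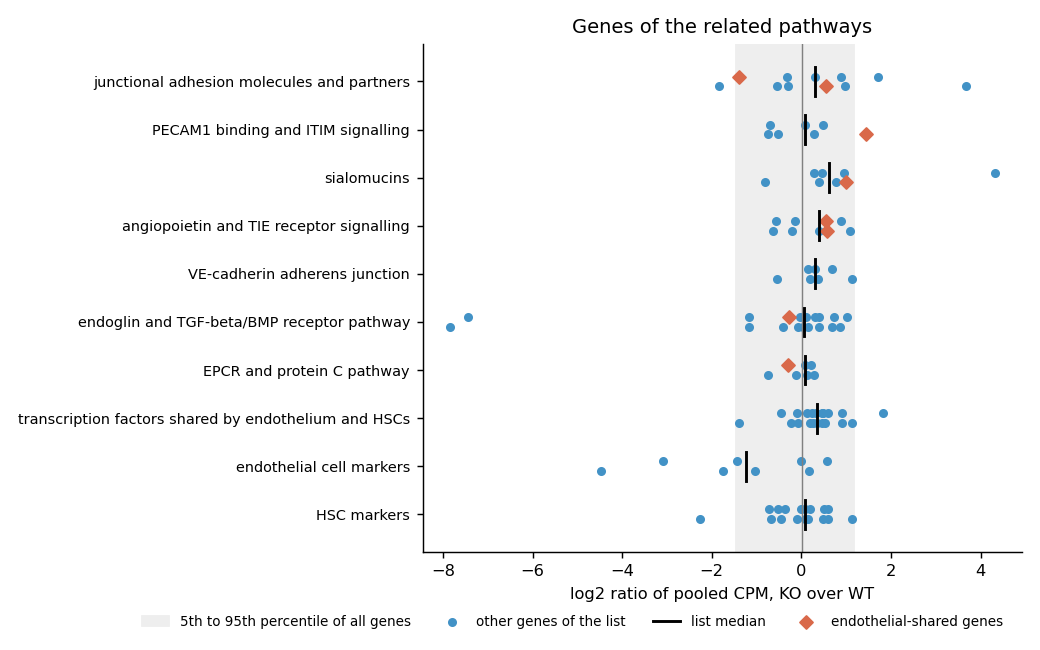
Log2 ratio of pooled CPM, KO over WT (horizontal axis), of the genes in 10 lists (rows), with the endothelial-shared genes as orange diamonds, list medians as black bars, the 5th to 95th percentile of all genes (-1.45 to 1.18) shaded and their median of 0.02 as a grey line. Esam lies near the lower edge of the shading and Pecam1 beyond the upper edge, and of the 10 lists the endothelial markers have the lowest median, -1.24, which is 0.081 over those that reached a mean of 0.5 UMI.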

How the data were processed

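Single HSCs were profiled in 4 libraries per genotype. Per the labels, cDNA was made with barcoded oligo-dT primers and build mm9 was used. The values the authors deposited are log2 of the normalized UMI count plus 1 for 10720 genes in 586 cells, after genes with a low mean count were removed. A gene with very low counts in 1 label is thus in the table only through the other label. The aligner and the normalization method are not given in the sources used here.

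Within each cell, the values with the log2 undone were divided by their smallest step to recover UMIs. All values above 0 (100%) were whole within 0.01 of a count. The columns name the genotype and not the library, so cells were summed per label and no test was run. This differs from the count test planned for columns that give the library. No column lacked a label, no pair of cell columns was identical (0 duplicates), and the columns hold no barcodes. The study applied a minimum of 2000 genes and 20000 transcripts before deposit and retained the 586 cells. The same numbers, applied here to the UMIs of the 10720 genes left in the table, kept 493 cells. Doublets were not called in these hand-picked cells, and no cell types were assigned.

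CPM is UMIs per 1000000 UMIs of the table. CPM has exact Poisson, shares of cells exact binomial (Clopper-Pearson) and ratios exact Clopper-Pearson 95% intervals, which cover counting error only. A pooled count of 0 was raised to 3 for a ratio. The ratio intervals were tested on pools simulated with Poisson counts. Such counts lack the clustering of UMIs within cells, so the test does not cover it. Shares were taken after thinning each cell at random to 20000 UMIs. Python 3.11.15, numpy 2.4.6, pandas 2.3.3 and scipy 1.17.1 were used.

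The genes and lists were chosen with earlier results of these data known, and the study itself named Esam on these cells. Named by rule were the 8 genes, the highest and lowest gene of each list with a mean of at least 0.5 UMI, 3 genes by r for Esam and for Emcn, Med23 and Zp3, and other genes were named after their values were seen. Alternatives changed the cells kept, depth, scaling, cell weights and foreign RNA. Depth ranges and splits by Slamf1 or by 5 endothelial markers were added after seeing the data.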

Additional observations from a re-analysis of the deposited data

How the results depend on the processing

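Over 7 other ways of processing no gene of the set changed sign, and the log2 ratio ran from -1.72 to -1.26 for Esam and from 0.82 to 1.24 for Emcn, 0.87 to 1.52 for Pecam1, 0.31 to 1.22 for Jam3, 0.27 to 0.66 for Tek, 0.27 to 0.62 for Tie1, -0.36 to -0.21 for Eng and -0.43 to -0.12 for Procr. Esam was at -1.26 and Emcn at 0.82 with a minimum of 3000 genes and 30000 UMIs, and at -1.68 and 1.24 with thinned cells. Esam was at -1.72 with the authors' normalized values averaged over cells and at -1.54 without the highest cell. The averaged values moved the median of all genes to -0.14, and relative to it Procr was at -0.02 and Eng at -0.22. By depth, chosen after seeing the data, Esam was at -2.17, -2.13 and -0.93 and Emcn at 2.02, 0.79 and 0.67, and in cells with a Slamf1 UMI Emcn was at 1.74. Reversed were Procr (0.085 at 20000 to 40000 UMIs and 0.25 at 40000 to 80000), Tek (-0.15 at 20000 to 40000 UMIs, and -3.88 in cells with a Slamf1 UMI, from 1 KO UMI), Jam3 (-0.36 at 80000 UMIs or more), Eng (0.35 in cells with a Slamf1 UMI), the median of the endothelial markers (0.081 over genes with at least 0.5 UMI) and the share difference of Eng (0.48 points, thinned to 10000 UMIs). Share differences of Procr and Tek, whose intervals overlapped between labels, also changed sign between settings. The cause was not tested. No paired analysis was possible because no column names its library, and for the same reason the replicate block, leaving out libraries and the edgeR and DESeq2 tests were not run. Low UMI counts limit Tek and Jam3 most.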
